A study of Mus musculus with 4 samples.

Results

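The microRNAs described here come from a cluster of hairpins inside Clcn5 on the mouse X chromosome. Rows were chosen by name, as every microRNA listed as miR-188, miR-362, miR-500, miR-501, miR-532 or miR-660, with any arm or star. The names gave 9 rows of 508 endogenous microRNAs: miR-500, and both arms of miR-501, miR-362, miR-188 and miR-532. No row was named miR-660. The 9 rows were listed in each of the 4 libraries, and all 9 were among the 372 microRNAs past the floor on low counts.

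The libraries are small RNA sequenced from embryonic fibroblasts of the mouse, which are cells cultured from embryos. All 4 libraries come from cells with the strain name shLuc.1309, whose transgene codes for a hairpin RNA (shRNA) that targets luciferase, an enzyme with no mouse counterpart. The groups hold 1 library each: shLuc.1309;ROSA-rtTA with doxycycline (written rtTA, +dox), shLuc.1309;ROSA-rtTA without it (rtTA, -dox), shLuc.1309 with doxycycline (no rtTA, +dox) and shLuc.1309 without it (no rtTA, -dox). rtTA is a transactivator that turns on tetracycline-responsive promoters when doxycycline (dox) is present, here driven from the widely active Rosa26 locus. The labels give no dose or duration of dox and no number of embryos. The shRNA row held 2.38% of all counts in rtTA cells with dox, against 0.0786% in rtTA cells without dox; it held 0.0774% in cells without rtTA given dox and 0.0725% in those without dox.

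A microRNA hairpin is cut out of a longer transcript and trimmed to a duplex of a 5p and a 3p arm. Usually an arm of the duplex is kept in an Argonaute protein as the guide and the other is degraded, so that arms made in equal number can differ greatly in level. The guide finds its targets mainly through its seed, bases 2 to 8. Hairpins in an intron, such as these, can be made from the transcript of their host gene. Clcn5 encodes a chloride and proton exchanger of endosomes, best known from the kidney tubule.

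The sequences below are shown because the counts of both arms, the shared seeds and the content of G all enter the results. Each was found as deposited within the RefSeq hairpin of the same name (GRCm38.p6) and is given in RNA letters, 5′ to 3′, with the seed in capitals.
miR-500: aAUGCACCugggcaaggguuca
miR-501-3p: aAUGCACCcgggcaaggauuug
miR-501-5p: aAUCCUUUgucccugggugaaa
miR-362-5p: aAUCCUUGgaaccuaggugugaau
miR-362-3p: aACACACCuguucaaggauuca
miR-188-5p: cAUCCCUUgcaugguggaggg
miR-188-3p: cUCCCACAugcaggguuugca
miR-532-5p: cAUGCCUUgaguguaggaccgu
miR-532-3p: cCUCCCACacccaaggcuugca

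miR-500 and miR-501-3p had the same seed and lay 4 edits apart over their whole length. miR-500 is, by its place in its hairpin, the 3p arm of Mir500. miR-362-5p and miR-501-5p shared their first 7 bases, and their seeds differed by 1 base. miR-188-3p and miR-532-3p shared a run of 8 bases, CUCCCACA, which starts at base 1 of miR-188-3p and at base 2 of miR-532-3p. No member had another listed microRNA within 2 edits. Content of G ran from 13.6% in miR-362-3p and miR-532-3p to 38.1% in miR-188-5p.

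The hairpin from which miR-532-5p and miR-532-3p are cut is shown with both arms in capitals, since the balance of these arms differed most clearly between libraries. Mir501 is shown beside it as the hairpin whose 3p arm was the more abundant.
Mir532: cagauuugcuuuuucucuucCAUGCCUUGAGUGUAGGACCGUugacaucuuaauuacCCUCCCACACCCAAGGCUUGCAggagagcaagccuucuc
Mir501: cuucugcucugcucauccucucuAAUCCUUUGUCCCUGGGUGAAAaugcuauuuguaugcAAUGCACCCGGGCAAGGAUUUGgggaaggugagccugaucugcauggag

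In GRCm38 the 5 hairpins lie on the minus strand, as Clcn5 does (X:7153810-7319358 in GENCODE). In the direction of transcription the order is Mir532 (X:7248402-7248497), Mir188 (X:7247989-7248056), Mir362 (X:7241982-7242046), Mir501 (X:7241243-7241351) and Mir500 (X:7237683-7237774), over 10.8 kb in all. Mir532 and Mir188 are 345 bases apart, and Mir362 and Mir501 are 630 bases apart. No hairpin overlapped an exon of Clcn5. Of 5 annotated Clcn5 transcripts, 3 span the cluster. In the 2 protein-coding transcripts among them the cluster sits in intron 3 and in intron 2, which are the same 104 kb stretch.

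**Figure D1:**
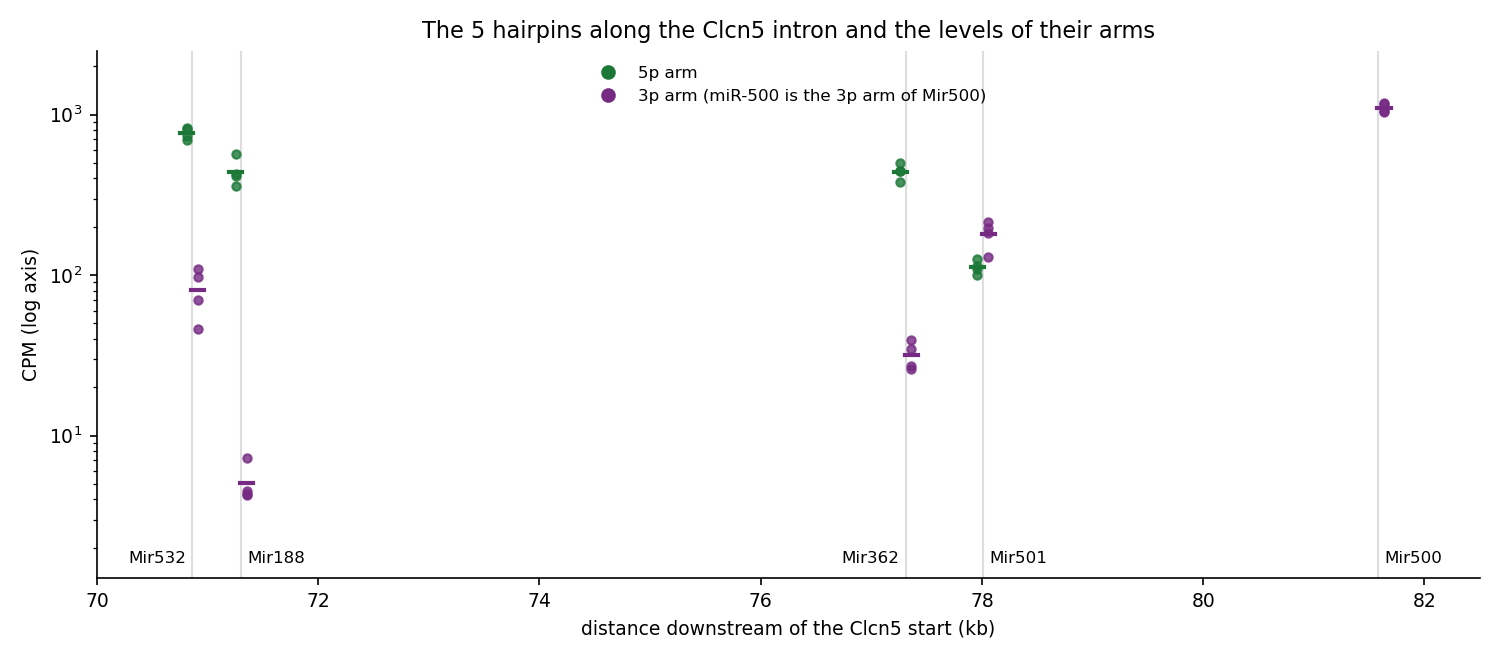
Levels of the arms of the 5 hairpins by their place in the host gene: the x axis gives the distance of each hairpin from the Clcn5 start in kb and the y axis CPM on a log scale. Each point is 1 of 4 libraries, bars are their means, and 5p and 3p arms are drawn side by side. Mir500 is farthest from the start, at 81.6 kb, and its 3p arm has the highest mean level.

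Levels are given in CPM, counts per 1000000 counts of all endogenous microRNAs in the same library, with the shRNA left out. The libraries hold 7507893 (rtTA, +dox), 8774056 (rtTA, -dox), 6540030 (no rtTA, +dox) and 6378964 (no rtTA, -dox) such counts. A comparison of 2 libraries is a log2 ratio of CPM with an exact 95% interval. The 2-fold rule counts a microRNA as higher or lower when its ratio is 2-fold or more and the interval does not reach equality. Since each group is 1 library, differences cannot be checked against replicates. The intervals cover counting error only, the values compare libraries, not conditions, and no p-value is given. Fewer cells making a microRNA and less of it per cell cannot be told apart in such bulk samples. Of the fibroblast or mesenchymal markers, 6 of 7 were listed, with a summed level of 409669 to 423989 CPM. The 5 epithelial markers summed to 3.61 to 15.7 CPM, and the 4 of 6 pluripotent markers that were listed to at most 0.666 CPM.

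The whole cluster was lowest in dox-treated cells without rtTA. The summed level was 3379 CPM (rtTA, +dox), 3309 CPM (rtTA, -dox), 2766 CPM (no rtTA, +dox) and 3216 CPM (no rtTA, -dox), from 18091 to 29032 counts. Each of the 9 members had its lowest level in the no rtTA, +dox library, which was the lowest library for 24.5% of all 372 microRNAs. This held for all 9 when libraries were scaled by TMM factors, by DESeq2 size factors or without the 10 most abundant microRNAs, and for 8 when the shRNA was included in the scaling, where miR-500 was lowest in the rtTA, +dox library. For some members the step from no rtTA, +dox up to rtTA, +dox was within counting error. Its log2 ratio was 0.02 (-0.03 to 0.07) for miR-500, 0.06 (-0.24 to 0.37) for miR-362-3p and 0.08 (-0.68 to 0.86) for miR-188-3p. The members lie in the same host gene and were counted in the same libraries, so they are not separate observations.

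miR-500 was the most abundant member. It had 1049 CPM (rtTA, +dox), 1171 CPM (rtTA, -dox), 1034 CPM (no rtTA, +dox) and 1174 CPM (no rtTA, -dox). Both dox libraries lay below both libraries without dox, by about the same step. miR-501-3p, which has the same seed, had 213 CPM (rtTA, +dox), 195 CPM (rtTA, -dox), 130 CPM (no rtTA, +dox) and 184 CPM (no rtTA, -dox). Here a single library, no rtTA with dox, stood below the other 3, and the members that share a seed thus had different profiles. Their sum, the level of the seed AUGCACC, was 1262, 1366, 1164 and 1357 CPM in the same order of libraries.

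mmu-miR-532-5p, the next most abundant, had 821 CPM (rtTA, +dox), 818 CPM (rtTA, -dox), 690 CPM (no rtTA, +dox) and 741 CPM (no rtTA, -dox). Both rtTA libraries lay above both libraries without rtTA. The other arm, mmu-miR-532-3p, had 69.5 CPM (rtTA, +dox), 109 CPM (rtTA, -dox), 46.3 CPM (no rtTA, +dox) and 97.8 CPM (no rtTA, -dox). For this arm both dox libraries were low and both libraries without dox were high. Its highest level was 2.36-fold above its lowest, against 1.19-fold for miR-532-5p and a median of 1.58-fold over all 372 microRNAs.

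miR-188-5p had 571 CPM (rtTA, +dox), 413 CPM (rtTA, -dox), 358 CPM (no rtTA, +dox) and 426 CPM (no rtTA, -dox). The rtTA, +dox library, in which the shRNA is induced, stood above the other 3. miR-362-5p had 497 CPM (rtTA, +dox), 446 CPM (rtTA, -dox), 378 CPM (no rtTA, +dox) and 443 CPM (no rtTA, -dox). These neighbours in the order of levels changed places: miR-188-5p was above miR-362-5p in the induced library and below it in the other 3. Their other arms were scarce. miR-362-3p had 27.2 CPM (rtTA, +dox), 39.3 CPM (rtTA, -dox), 26.0 CPM (no rtTA, +dox) and 34.6 CPM (no rtTA, -dox), again low in both dox libraries.

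miR-188-3p was the rarest member, with 4.53 CPM (rtTA, +dox), 4.33 CPM (rtTA, -dox), 4.28 CPM (no rtTA, +dox) and 7.21 CPM (no rtTA, -dox), on 28 to 46 counts. Its 95% counting intervals overlapped between all 4 libraries. miR-501-5p had 127 CPM (rtTA, +dox), 114 CPM (rtTA, -dox), 100 CPM (no rtTA, +dox) and 110 CPM (no rtTA, -dox), a narrow range of 1.27-fold.

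**Figure D2:**
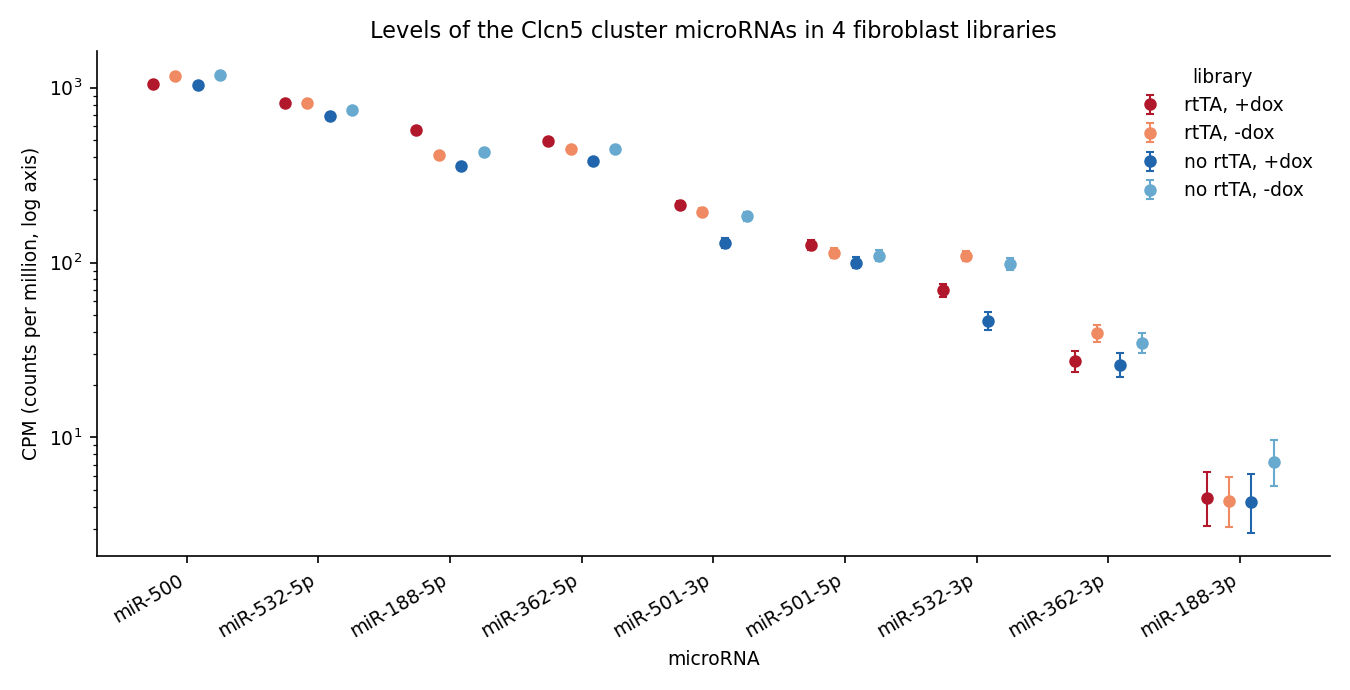
Levels of the 9 members in the 4 libraries: each point is the CPM of a microRNA in 1 library on a log axis, and bars are exact 95% Poisson intervals, which cover counting error only. The no rtTA, +dox library (dark blue) is the lowest for each member, while miR-532-3p and miR-362-3p are low in both dox libraries.

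Dox without rtTA compares cells that get the drug without induction of the shRNA. All 9 members had ratios below 0 in the dox-treated library, where 54% of all 372 microRNAs did, and 8 of the 9 had an interval wholly below 0, against a background of 34.7%; 0 intervals lay wholly above 0, against 32.5%. By the 2-fold rule 1 member was lower, miR-532-3p, against 0.806% of all 372, and 0 members were higher, against 0.806%. At 1.5-fold, 2 members were lower, miR-532-3p and miR-188-3p, against 7.8% of all 372, and 0 were higher, against 7.53%. The median of the 9 log2 ratios was -0.25, against -0.04 over all 372, and the sum over the members gave a log2 ratio of -0.22 (-0.25 to -0.19). All 9 ratios were below 0 under each scaling tried and with the trend on G subtracted.

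miR-532-3p had 303 counts in the dox-treated library and 624 in the untreated library, a log2 ratio of -1.08 (-1.28 to -0.88), the third lowest of the 372. The lower call for miR-532-3p had been seen in an earlier treatment of these data and is given here as a description. miR-188-3p had a log2 ratio of -0.75 (-1.48 to -0.04), on 28 and 46 counts. miR-501-3p was at -0.50 (-0.63 to -0.37) and miR-362-3p at -0.41 (-0.71 to -0.12). The 3p arms with a named partner thus held the 4 lowest ratios of the cluster. The 4 5p arms lay close together, from -0.25 (miR-188-5p) to -0.10 (miR-532-5p), with miR-500 at -0.18 (-0.23 to -0.14). In the same pair of libraries the summed neuronal markers were at 340 CPM with dox and 243 CPM without, and the endothelial markers at 175 and 120 CPM; their part in the result was not tested.

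Dox in rtTA cells is the comparison in which the shRNA is induced. The cluster as a whole was nearly level, with a log2 ratio of the sum of 0.03 (0.01 to 0.05), which was slightly below 0 when the shRNA was included in the scaling. No member passed the 2-fold rule in either direction, where 1.34% of all 372 microRNAs were higher and 8.6% lower. The members went different ways: 4 intervals lay wholly above 0 (33.6% of all 372) and 3 wholly below (39.5%). The median was 0.06 over the 9 members, against -0.06 over all 372, and 8 of the 9 lay within 1.5-fold, against 69.9% of all. At 1.5-fold miR-532-3p alone was lower, against 17.7% of all 372, and 0 members were higher, against 11%.

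miR-188-5p had the highest ratio, 0.47 (0.40 to 0.53), or 1.38-fold. miR-501-5p and miR-362-5p were at 0.16 each and miR-501-3p at 0.12 (0.02 to 0.22), while miR-532-5p was at 0.01 (-0.04 to 0.05). miR-532-3p had the lowest ratio, -0.65 (-0.81 to -0.50), followed by miR-362-3p at -0.53 (-0.79 to -0.28) and miR-500 at -0.16 (-0.20 to -0.12). The 3 muscle markers summed to 589 CPM with dox and 378 CPM without. Singly they went different ways, with log2 ratios of 0.71 for miR-206, -0.44 for miR-133a and -1.08 for miR-1. A higher sum of these markers, here or in the comparisons below, thus does not mean that each was higher. The 4 blood markers summed to 50.9 CPM with dox and 80.0 CPM without. The part of the muscle and blood markers in the result was not tested.

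In this comparison the ratios of all 372 microRNAs moved with the content of G in the mature sequence, with a Pearson correlation of 0.72 across microRNAs, which share the same 2 libraries. The members with extreme ratios were also those with extreme G content: 38.1% in miR-188-5p, and 13.6% in both miR-532-3p and miR-362-3p. With a linear trend of the ratios on G taken out, miR-188-5p was at 0.03, miR-532-3p at -0.05 and miR-362-3p at 0.07; this step moved the median of all 372 by 0.17. The members farthest from the trend were then miR-501-5p (0.37), miR-500 (-0.33) and miR-362-5p (0.28). Without rtTA the correlation with G was -0.20, and miR-532-3p lay at -1.18 after that trend was subtracted, no nearer to 0 than before. Among the members the content of C was highest in miR-532-3p, at 50%, followed by miR-188-3p at 33.3%. The part of C in the ratios was not tested.

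**Figure D3:**
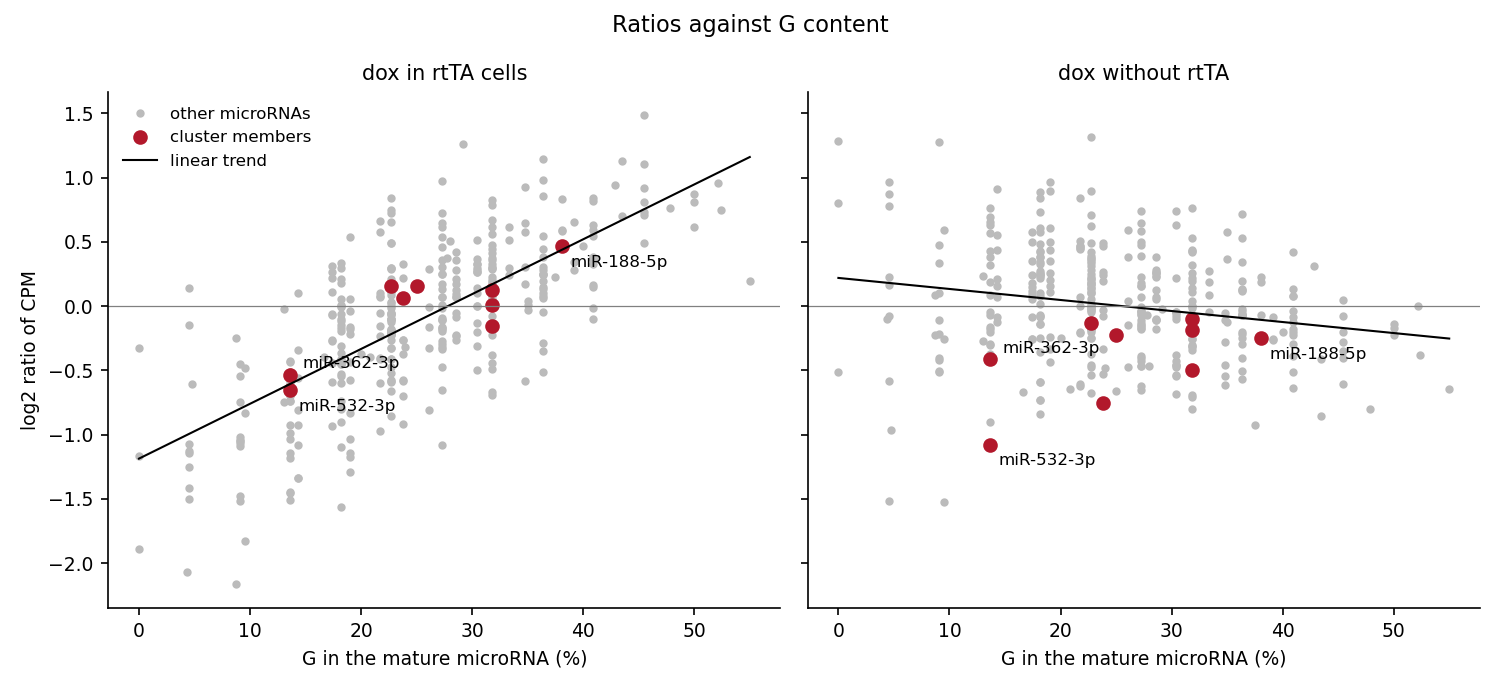
Log2 ratios of CPM (y axis) against the percentage of G in the mature microRNA (x axis) for the 372 microRNAs past the floor, with dox in rtTA cells on the left and dox without rtTA on the right. Red points are the 9 members and the line is the linear trend over all 372. miR-532-3p and miR-362-3p lie near the trend on the left and below it on the right.

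The dox ratios with and without rtTA share no library. Their difference, with minus without, was above 0 for 8 of the 9 members, against 48.4% of all 372 microRNAs, and its 95% delta-method interval lay wholly above 0 for 6, against 36% of all 372. Its median was 0.38 over the members and -0.05 over all 372. The no rtTA, +dox library, the lowest for each of the 9 members, enters the difference with a minus sign. These counts are therefore not independent of that result. The difference was 0.72 (0.62 to 0.82) for miR-188-5p and 0.62 (0.46 to 0.79) for miR-501-3p, 2 of the members whose ratios had opposite signs. For miR-532-3p, lower with dox in both, it was 0.42 (0.17 to 0.68). For miR-500 it was 0.02 (-0.04 to 0.09) and for miR-362-3p -0.12 (-0.50 to 0.26), intervals that span 0. These intervals take no account of the trend on G. With that trend subtracted, the values with and without rtTA were -0.33 and -0.13 for miR-500. They were 0.07 and -0.52 for miR-362-3p, and -0.05 and -1.18 for miR-532-3p.

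rtTA without dox compares the genotypes with the shRNA uninduced, and it shares a library with each dox comparison. No member passed the 2-fold rule, where 0.538% of all 372 were higher and 1.34% lower. The sum gave a log2 ratio of 0.04 (0.02 to 0.07), and the median of the members was 0.05, against -0.07 over all 372. Ratios were below 0 for 3 members, against 58.3% of all 372, and above 0 for 6, against 41.7%. At 1.5-fold miR-188-3p was lower, against 6.99% of all 372, and 0 members were higher, against 2.42%. Intervals lay wholly above 0 for 2 members (27.2% of all 372), miR-532-5p at 0.14 (0.09 to 0.20) and miR-532-3p at 0.16 (0.01 to 0.31). The interval was wholly below 0 for 1 member (37.6% of all 372), miR-188-3p at -0.74 (-1.39 to -0.08), on 38 and 46 counts. miR-500 was at -0.004 (-0.05 to 0.04). The correlation with G was -0.004 over all 372 here, where neither library is the induced one. It was 0.72 for dox in rtTA cells and 0.69 for rtTA with dox, which share the induced library. The muscle markers summed to 378 CPM with rtTA and 261 CPM without, and the blood markers to 80.0 and 58.5 CPM; their part in the result was not tested.

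rtTA with dox sets induced cells against cells that had dox but no rtTA. Its denominator, the no rtTA, +dox library, is the numerator of dox without rtTA, so these results are not independent. All 9 ratios were above 0, where 44.4% of all 372 were above and 55.6% below, and 6 intervals lay wholly above 0 (32.3% of all 372). With the shRNA included in the scaling, or with the trend on G subtracted, 1 of the 9 was below 0. The sum gave a log2 ratio of 0.29 (0.26 to 0.32), or 1.22-fold. No member was counted as higher or lower, where 2.42% of all 372 were higher and 14.2% lower. At 1.5-fold 3 members were higher, miR-501-3p, miR-188-5p and miR-532-3p, against 13.7% of all 372, and 0 were lower, against 24.2%. miR-501-3p was at 0.71 (0.59 to 0.84), miR-188-5p at 0.67 (0.60 to 0.75) and miR-532-3p at 0.59 (0.38 to 0.79), while miR-500 was at 0.02 (-0.03 to 0.07). TMM and DESeq2 scaling raised every ratio of this comparison by 0.10. The correlation with G was 0.69 over all 372, and after that trend was subtracted, which moved the median of all 372 by 0.26, miR-532-3p was at 1.36 and miR-188-5p at 0.20. The 3 muscle markers, all listed, summed to 589 CPM in the induced library and 245 CPM in the no rtTA, +dox library, and the 2 endothelial markers to 126 and 175 CPM; their part in the result was not tested.

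**Figure D4:**
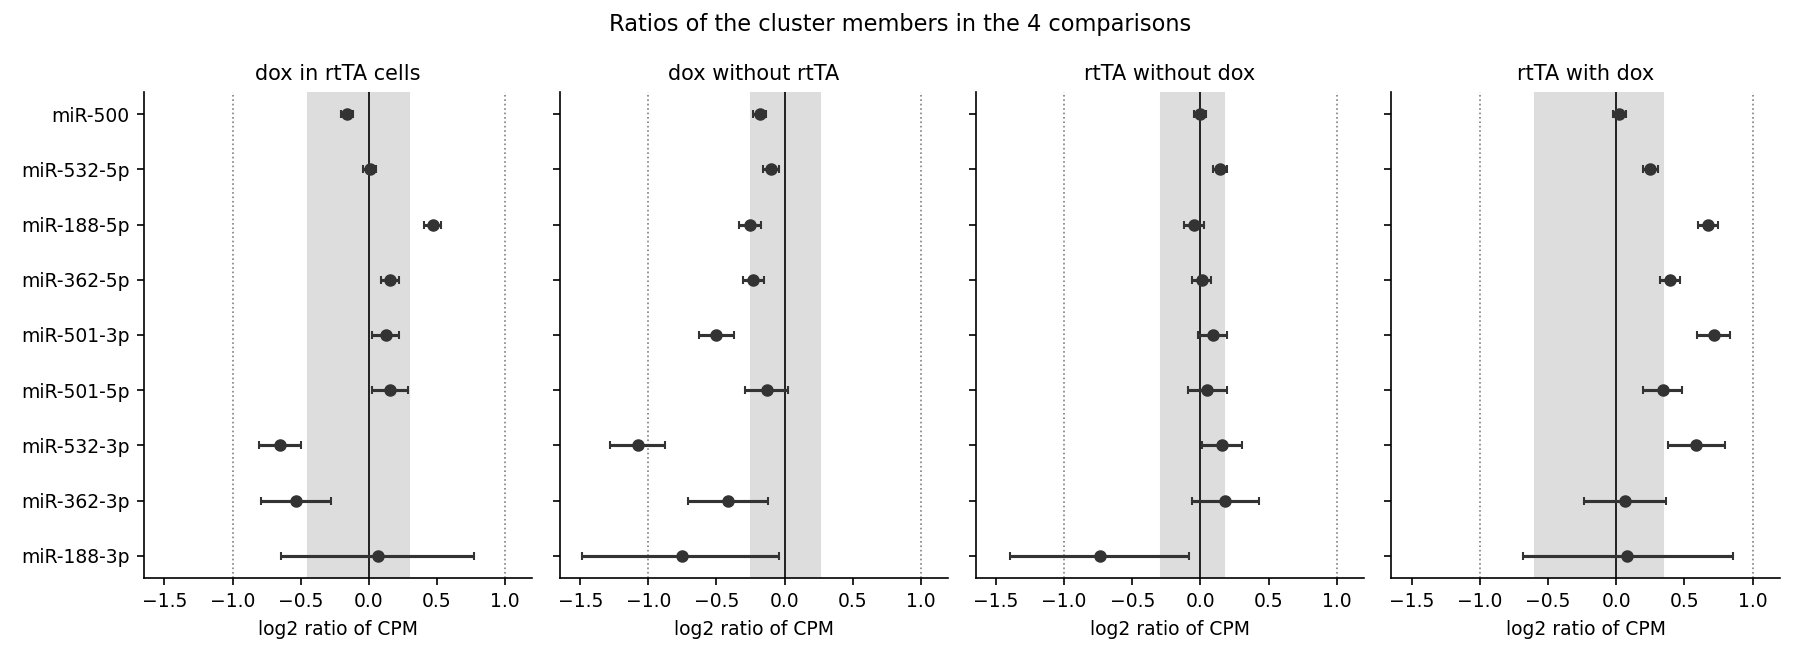
Log2 ratios of CPM of the 9 members (rows, by falling mean level) in the 4 comparisons (panels), with exact 95% counting intervals. The grey band runs from the 0.25 to the 0.75 quantile of all 372 microRNAs and dotted lines mark 2-fold. All 9 points are below 0 for dox without rtTA and above 0 for rtTA with dox, and only miR-532-3p passes a 2-fold line, for dox without rtTA.

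Arms of a hairpin come from the same precursor, so the share of an arm does not depend on how libraries are scaled. At miR-532 the 3p arm held 7.81% of the counts of both arms in rtTA cells with dox (7.18% to 8.48%, Clopper-Pearson), against 11.8% in rtTA cells without dox (11.1% to 12.5%). Without rtTA it held 6.29% with dox (5.62% to 7.01%), against 11.7% without dox (10.8% to 12.6%). The intervals of both dox libraries thus lay below those of both libraries without dox. The shares without rtTA reuse the 303 and 624 counts of miR-532-3p whose lower call was known earlier and led to this hairpin, so they are a description and no separate support. The log2 odds ratio of the 3p arm was -0.66 (-0.82 to -0.50) with rtTA and -0.97 (-1.18 to -0.77) without. Between the libraries without dox it was 0.02 (-0.14 to 0.17).

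The other hairpins differed in where the share moved. At miR-362 the 3p arm held 5.19% (rtTA, +dox), 8.10% (rtTA, -dox), 6.43% (no rtTA, +dox) and 7.26% (no rtTA, -dox). Its log2 odds ratio was -0.69 (-0.94 to -0.43) for dox in rtTA cells and -0.18 (-0.48 to 0.11) for dox without rtTA. At miR-501 the 3p arm was the more abundant, with 62.7% (rtTA, +dox), 63.3% (rtTA, -dox), 56.5% (no rtTA, +dox) and 62.6% (no rtTA, -dox). Only the no rtTA, +dox library had an interval apart from the other 3 at this hairpin, 53.9% to 59.0%. At miR-188 the 3p arm held 0.787% (rtTA, +dox), 1.04% (rtTA, -dox), 1.18% (no rtTA, +dox) and 1.66% (no rtTA, -dox), with intervals for dox that spanned equality in both genotypes.

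The odds of the 3p arm were lower with dox at all 4 hairpins in both genotypes, with intervals wholly below 0 at 2 of 4 in each. These were miR-362 and miR-532 with rtTA, and miR-501 and miR-532 without. At miR-501 with rtTA the log2 odds ratio was only -0.03 (-0.19 to 0.13), against -0.37 (-0.57 to -0.17) without. Over the 44 hairpins with both arms named as 5p and 3p, which include these 4, the odds were lower with dox at 54.5% with rtTA and 40.9% without. The intervals were wholly below 0 at 36.4% with rtTA and 20.5% without. With miR-501 left out, since its 3p arm is the more abundant, 2 of 3 intervals were wholly below 0 with rtTA and 1 of 3 without. For rtTA without dox the odds were below 0 at 1 of the 4 hairpins, miR-188, with its interval wholly below 0, against 43.2% and 18.2% of the 44. For rtTA with dox they were below 0 at 2, miR-188 and miR-362, and the interval was wholly below 0 at miR-362, against 50% and 36.4% of the 44. The interval was wholly above 0 at the other 2, miR-501 at 0.37 (0.19 to 0.56) and miR-532 at 0.33 (0.12 to 0.55), against 27.3% of the 44. The 3p arm has less G than the 5p arm at miR-532 (13.6% against 31.8%), miR-362 (13.6% against 25%) and miR-188 (23.8% against 38.1%), and more at miR-501 (31.8% against 22.7%). The part of base composition in the arm shares was not tested.

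**Figure D5:**
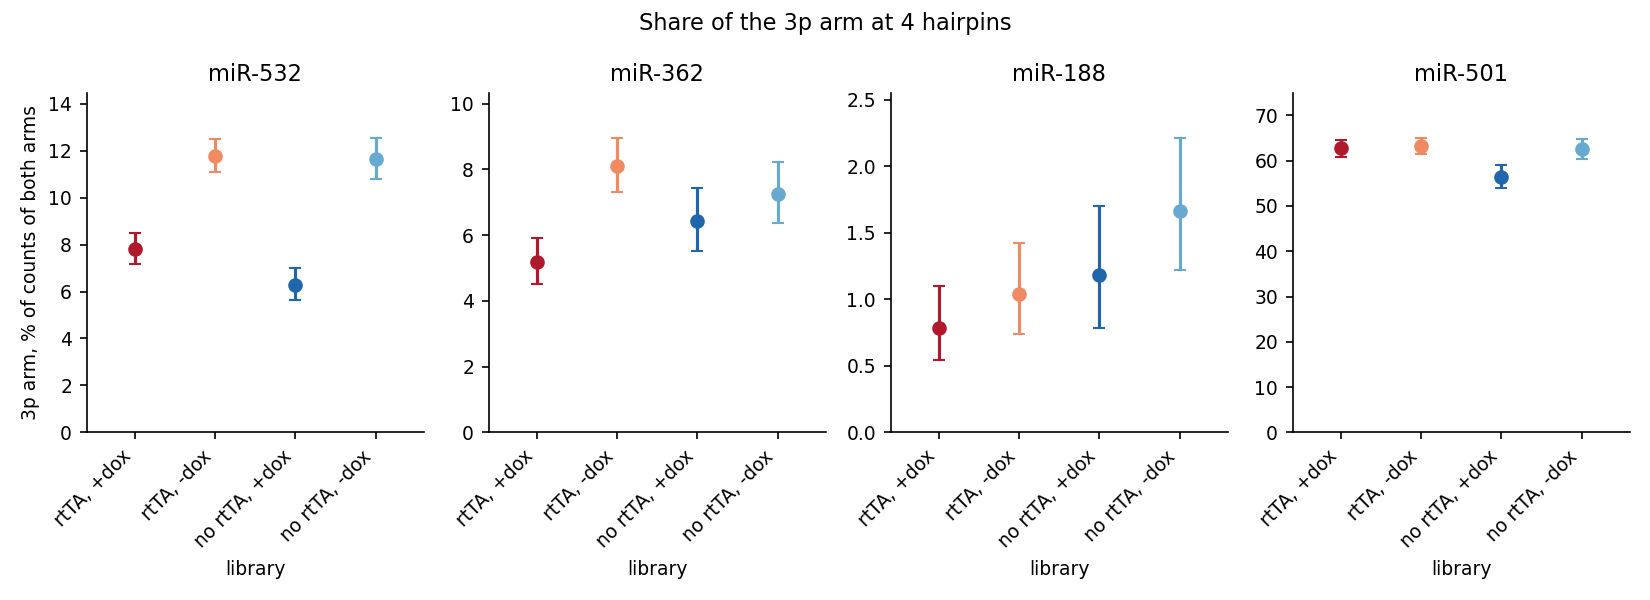
Share of the 3p arm in the counts of both arms (y axis, %, each panel from 0 on its own scale) in the 4 libraries (x axis) for the 4 hairpins with both arms listed. Bars are 95% Clopper-Pearson intervals. At miR-532 the dox libraries, at 7.81% and 6.29%, lie below the libraries without dox, at 11.8% and 11.7%.

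The share of each member in the cluster's counts does not depend on how libraries are scaled, and it can differ in pattern from the CPM. miR-500 made up 31.1% of the cluster's counts in the induced library (30.5% to 31.6%), against 35.4% (rtTA, -dox), 37.4% (no rtTA, +dox) and 36.5% (no rtTA, -dox). miR-188-5p made up 16.9% in the induced library (16.4% to 17.4%), against 12.5%, 12.9% and 13.2% in the others. The induced library was thus the one apart for both, low for miR-500 and high for miR-188-5p. Shares do not remove the trend on G, which is 38.1% in miR-188-5p and 31.8% in miR-500. With that trend subtracted, the log2 ratio for dox in rtTA cells was 0.03 for miR-188-5p and -0.33 for miR-500. The no rtTA, +dox library, where the CPM of miR-500 was lowest, had its highest share. miR-532-5p kept between 23.0% and 24.9% in all 4 libraries, and miR-362-5p between 13.5% and 14.7%.

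Profiles over the 4 libraries were compared by the root mean square difference of log2 CPM centred on its mean, over 4 libraries. The closest pair of members was miR-362-5p and miR-501-5p, at 0.03, the arms that share their first 7 bases, and the farthest was miR-188-5p and miR-532-3p, at 0.49. miR-532-5p and miR-532-3p, from the same hairpin, were 0.43 apart. The median was 0.10 over the 6 pairs of 5p arms and 0.30 over the 10 pairs of 3p arms, miR-500 included. Over all 36 pairs of members it was 0.27. It was 0.38 over all pairs of the 372 microRNAs, 0.30 over the 10 pairs of the 5 microRNAs past the floor from the Mcm7 cluster (miR-106b, miR-93 and miR-25, with stars) and 0.42 over the 36 pairs of 9 microRNAs from the X-linked miR-322 cluster. For dox without rtTA the ratios ran from -1.08 to -0.10 in the Clcn5 cluster, from -0.10 to 0.43 in the Mcm7 cluster and from -0.65 to 0.74 in the miR-322 cluster. The groups of pairs were not matched for level, though rarer microRNAs have more counting error. The differences between the clusters were not tested.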

How the data were processed

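For each library the authors deposited a table of whole-number counts per mature microRNA, unscaled, plus a row for the shRNA. MicroRNAs absent from a table were set to 0. Which aligner, mismatch limit, microRNA database or build was used, and how reads that match several microRNAs were treated, was not given in the sources used here.

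From these counts CPM, ratios and shares were computed with Python 3.11.15 and scipy 1.17.1. A microRNA passed the floor at a mean CPM worth 20 or more counts in the smallest library (3.14 CPM). Ratios have exact conditional binomial intervals and shares Clopper-Pearson intervals at 95%. Reads amplified by PCR are not independent molecules, so these cover counting error only. A count of 0 would allow 0.342 to 0.470 CPM (3 counts). Odds ratios and differences of ratios used 0.5 added to each count. The ratio script was tested on simulated data with known changes. TMM factors came from edgeR 4.0.16 and size factors from DESeq2 1.42.0. Places were taken by matching each deposited sequence to the RefSeq hairpin table; all 9 matched, and for miR-532-5p the place was derived from its hairpin. The named microRNAs are all rows the name rule matched, plus the 3 outside the cluster with the profile nearest to the most abundant member; those nearest to the arms of miR-532 were added after values were seen. The members and lists were chosen with earlier results of these data known.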

Additional observations from a re-analysis of the deposited data

Results flagged for a closer look

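For 3 members the dox ratios with and without rtTA had opposite signs, each with a counting interval that excluded equality, as they had for 33.6% of all 372 microRNAs. With 1 library per group the differences have no replicate check. miR-188-5p was at 0.47 with rtTA and -0.25 without, a difference of 0.72 (0.62 to 0.82). miR-501-3p was at 0.12 with rtTA and -0.50 without, a difference of 0.62 (0.46 to 0.79). miR-362-5p was at 0.16 with rtTA and -0.23 without, a difference of 0.38 (0.28 to 0.49). With the trend on G subtracted from both, the values with and without rtTA were 0.03 and -0.14 for miR-188-5p, -0.05 and -0.45 for miR-501-3p, and 0.28 and -0.23 for miR-362-5p.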

How the results depend on the processing

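The 2-fold calls stayed at the same number in all 4 comparisons under the TMM, DESeq2, scalings, without the 10 most abundant microRNAs, with the shRNA included, with no floor or a floor of 100 counts, and without star names or near-identical members, of which there were 0. With the trend on G subtracted, 1 member (miR-532-3p) was called for rtTA with dox. At 1.5-fold the calls were 1 (dox in rtTA cells), 2 (dox without rtTA), 1 (rtTA without dox) and 3 (rtTA with dox); the background at that fold is given beside each comparison. For rtTA without dox, 3 members lay below 0, and 1 did under DESeq2 factors or with the G trend subtracted; for rtTA with dox, 0 did, and 1 with the shRNA included or the G trend subtracted.

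The log2 ratio of the sum for dox in rtTA cells was 0.06 under TMM (0.063) and DESeq2 (0.060) scaling, -0.0035 with the shRNA included, -0.095 with the G trend subtracted and 0.12 without miR-500. For dox without rtTA it was -0.26 (TMM) and -0.17 (G trend). For rtTA without dox it was 0.090 (DESeq2), 0.076 (without the 10 most abundant) and 0.11 (G trend). For rtTA with dox it was 0.39 under TMM (0.389) and DESeq2 (0.392), 0.25 (shRNA included), 0.18 (G trend) and 0.43 without miR-500. The cause was not tested. Of the 36 ratios of single members, 22 left their counting interval with the G trend subtracted and 6 changed sign; under TMM these were 4 and 1, under DESeq2 factors 5 and 2. No replicate could be left out and no paired analysis was possible because each group has 1 library. Depth limits miR-188-3p, with 28 to 46 counts.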

Other observations

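The microRNAs outside the cluster with the profile nearest to that of miR-500 over the 4 libraries were miR-28, miR-30d and miR-665, with root mean square differences of log2 CPM of 0.04, 0.04 and 0.05, against a median of 0.28. Nearest to miR-532-5p were miR-24, miR-222 and miR-155 (0.03, 0.04 and 0.06). Nearest to miR-532-3p was miR-483*, at 0.09, with 213 CPM (rtTA, +dox), 323 CPM (rtTA, -dox), 161 CPM (no rtTA, +dox) and 314 CPM (no rtTA, -dox), low in both dox libraries as well. It was followed by miR-133a (0.18) and miR-194 (0.22), against a median of 0.56.

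miR-329 was the other listed microRNA with the seed of miR-362-3p. It had 46.6 CPM (rtTA, +dox), 98.2 CPM (rtTA, -dox), 103 CPM (no rtTA, +dox) and 87.8 CPM (no rtTA, -dox). It was low in the induced library, as miR-362-3p was at 27.2 CPM. Both have little G, 4.5% in miR-329 and 13.6% in miR-362-3p. The part of base composition in this likeness was not tested. In the no rtTA, +dox library miR-329 was not low, while miR-362-3p was, at 26.0 CPM.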
